A study of Mus musculus with 12 samples.

Results

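The 31 genes described here belong to the unfolded protein response and the integrated stress response. These programmes are linked, and the first answers a load on the endoplasmic reticulum. The genes were taken as the probes whose gene name in the scanner files is on a list of 31 symbols. All 31 were among the 22132 genes tested. RNA from whole livers of BALB/c mice was measured in wild type animals and in interleukin-18 knockout animals, at 6 and at 12 weeks of age. Each of the 4 groups held 3 arrays, labelled as biological replicates, and no group was treated. The labels do not say how the knockout allele was made or from which strain it came, and sex and hour of collection are not stated. Wild type and knockout mice are not described as littermates.

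Secreted proteins are folded in the lumen of the endoplasmic reticulum, and the liver, which makes most plasma proteins, has a large one. When unfolded proteins accumulate, the sensors IRE1, PERK and ATF6 act through the transcription factors XBP1, ATF4 and ATF6 to raise chaperones, disulfide isomerases and the machinery that returns misfolded proteins to the cytosol for degradation (ERAD). PERK is also 1 of the kinases of the integrated stress response, in which phosphorylated eIF2 lowers general translation while ATF4 and its targets, among them Asns, Chac1, Trib3 and Ddit3, are raised.

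The promoter letters through which these programmes are known to act are shown first, as the sequence features that link the members to the response. The endoplasmic reticulum stress response element (ERSE) was searched as CCAAT, any 9 bases, then CCACG, on both strands, from 250 bases before to 50 bases after each RefSeq transcription start on GRCm38.p6. Promoter windows were found for 26 of the 31 members, and 9 of these 26 (34.6%) held an ERSE. Over all genes with a window, 37 of 27025 (0.137%) held it. The elements of the 9 genes are printed below 5′ to 3′ in the direction of the motif, with CCAAT and CCACG in capitals and the bases between them in lower case.
Hspa5: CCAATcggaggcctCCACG
Dnajc3: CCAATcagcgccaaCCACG
Hsp90b1, farther element: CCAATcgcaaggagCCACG
Hsp90b1, nearer element: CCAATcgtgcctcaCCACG
Calr: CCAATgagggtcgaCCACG
Canx: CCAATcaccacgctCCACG
Pdia6: CCAATgaaaggcggCCACG
Creld2: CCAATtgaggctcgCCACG
Syvn1: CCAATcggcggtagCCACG
Derl3: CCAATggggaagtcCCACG
On the same build, the elements of Hspa5 (chr2:34772025-34772043), Dnajc3 (chr14:118937827-118937845), Pdia6 (chr12:17266491-17266509) and Syvn1 (chr19:6046532-6046550) lay on the plus strand, which is the strand of these genes. Those of Canx (chr11:50325800-50325818) and the farther element of Hsp90b1 (chr10:86705638-86705656) lay on the minus strand, again that of the gene. Those of Calr (chr8:84847075-84847093), Creld2 (chr15:88819520-88819538) and Derl3 (chr10:75893242-75893260) and the nearer one of Hsp90b1 (chr10:86705533-86705551) were on the strand opposite to the gene. Hsp90b1 was the 1 member with 2 elements in its window. The ends nearest to the start lay 25 bases before it in Syvn1, 46 in Hspa5 and 193 in the farther element of Hsp90b1.

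**Figure D1:**
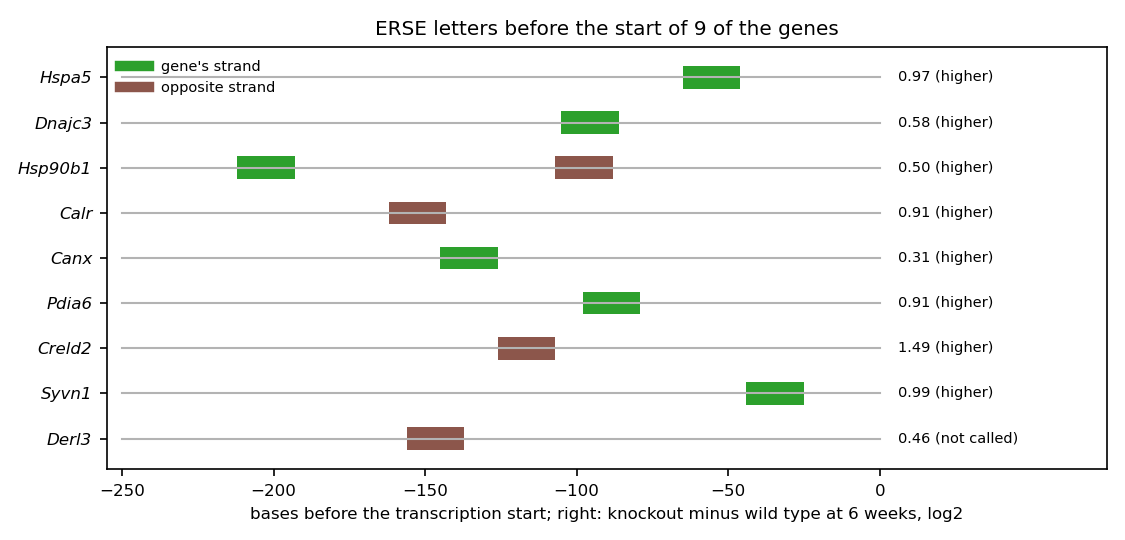
Position of each ERSE match in the 250 bases before the transcription start of the 9 members that hold one, with distance in bases on the x axis and 1 line per gene; colours give the strand and the values at the right are the log2 differences, knockout minus wild type, at 6 weeks. All matches lie between 25 and 212 bases before the start, and 8 of the 9 genes were higher in the knockout at 6 weeks in the fit without slide.

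Of the 15 members with a window that were higher in the knockout at 6 weeks, 8 held an ERSE, against 1 of the 11 other members, Derl3. Here and in the figure, higher refers to the fit that leaves out the array slide, described below. A second motif, the C/EBP-ATF response element (CARE) bound by ATF4 in amino acid response genes, was searched as TGATG, any base, AA, and was in 4 of the 26 members and in 4.51% of all genes. It was in 0 of the 15 members that were higher and in 4 of the 11 others, Herpud1, Trib3, Asns and Chac1. The element of Trib3 began at base 15 after the start. XBP1's own element (UPRE), searched as TGACG followed by TGG, was in 0 of the 26 members and in 0.714% of all genes; its last 5 letters are the complement of CCACG, so UPRE and ERSE matches can overlap. These matches describe letters in a short window and not occupied sites. Such elements are textbook features of several of these genes, so the members' share against all genes is given as a description, with no test.

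To show the elements in place, the 250 bases before the start of 3 members, each 5′ to 3′ on the gene's strand with the ERSE letters in capitals, are given next. Hspa5 (chr2:34771840-34772089, plus strand) is the best known target, Hsp90b1 (chr10:86705445-86705694, minus strand) holds 2 elements, and Syvn1 (chr19:6046326-6046575, plus strand) has its element nearest to the start and was higher in the knockout at both ages.
Hspa5: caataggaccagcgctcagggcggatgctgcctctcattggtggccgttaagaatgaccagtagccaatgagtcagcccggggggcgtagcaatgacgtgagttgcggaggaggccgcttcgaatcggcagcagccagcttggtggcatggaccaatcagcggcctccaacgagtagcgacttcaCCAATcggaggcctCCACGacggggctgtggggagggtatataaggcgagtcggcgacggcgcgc
Hsp90b1: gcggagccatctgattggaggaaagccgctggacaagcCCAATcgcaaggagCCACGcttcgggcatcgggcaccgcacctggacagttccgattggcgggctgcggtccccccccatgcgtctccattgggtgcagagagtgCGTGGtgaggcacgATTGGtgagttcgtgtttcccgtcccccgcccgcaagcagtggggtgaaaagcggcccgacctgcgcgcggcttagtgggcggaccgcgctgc
Syvn1: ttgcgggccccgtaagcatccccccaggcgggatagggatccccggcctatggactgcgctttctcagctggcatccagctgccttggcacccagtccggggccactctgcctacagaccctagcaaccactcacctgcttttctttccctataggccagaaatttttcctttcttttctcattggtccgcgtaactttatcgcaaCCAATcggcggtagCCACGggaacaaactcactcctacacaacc
The stretches around the CARE letters of Asns (chr6:7693210-7693258, gene on the minus strand), Chac1 (chr2:119351023-119351082, plus strand) and Herpud1 (chr8:94386291-94386350, plus strand), with those letters in capitals, were the following. In Chac1 and Herpud1 the motif reads on the opposite strand.
Asns: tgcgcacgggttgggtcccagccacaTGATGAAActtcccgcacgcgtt
Chac1: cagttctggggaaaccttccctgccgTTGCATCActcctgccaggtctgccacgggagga
Herpud1: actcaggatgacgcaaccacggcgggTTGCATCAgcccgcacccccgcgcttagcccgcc

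Levels are log2 of the scanner's processed signal relative to the 75th percentile of its array, and compare arrays but not genes. The 75th percentile lay between 349 and 420 scanner units and 50.1% to 57.7% of spots were well above background. All 31 members were well above background on all 12 arrays, and none had a saturated spot. Il18 itself ran from 2.15 to 2.49 in the wild type arrays and from -0.37 to 0.04 in the knockout arrays, with no overlap. The 8 hepatocyte markers examined, among them Alb, Ttr and Hnf4a, were well above background on all 12 arrays. In RNA of whole liver, fewer cells of a type and less RNA per cell cannot be told apart.

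Features of the arrays touch the results below. The arrays lay on 2 slides: slide 1 carried all 6-week wild type arrays plus 1 from the older wild type group (its replicate 1), and the remaining 8 were on slide 2. At 6 weeks slide and genotype therefore cannot be told apart within a slide. Age and slide are likewise largely joined in the wild type, where replicate 1 is the only 12-week array on slide 1. In the members, replicate 2 of the 12-week wild type stood apart from replicates 1 and 3. It was the highest of the 3 arrays for 20 of the 31 members. There 20 members lay above their own mean over the 12 arrays, against 4 in replicate 1 and 6 in replicate 3. These counts were not made over all genes. The median deviation from the 12-array mean in replicates 1, 2 and 3 was -0.18, 0.06 and -0.30 over the members. Over all genes it was -0.03, -0.02 and -0.04. Genes of the circadian clock also differed between groups. Of 18 clock genes tested, 4 were higher and 11 lower in the knockout at 6 weeks, and 8 were higher at 12 weeks. From 6 to 12 weeks 3 of them rose and 7 fell in the wild type, and 11 rose and 5 fell in the knockout. Dbp, a clock output, was at 6.82 to 7.04 in the 6-week wild type, -0.09 to 0.25 in the 6-week knockout, 4.92 to 6.21 in the 12-week wild type and 6.65 to 6.87 in the 12-week knockout. Its ranges in the 6-week knockout and in the 12-week wild type thus each overlapped with that of no other group. The part of slide, of that replicate and of the hour of collection in the differences between genotypes and between ages was not tested beyond the values given below.

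**Figure D2:**
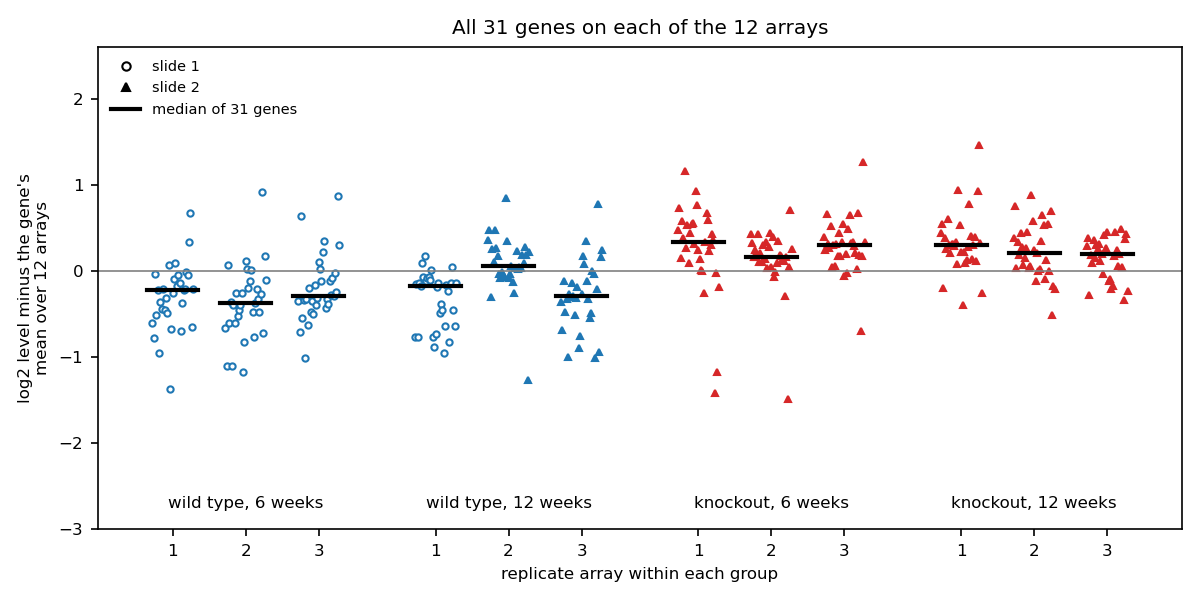
Level of each of the 31 members on each of the 12 arrays, as log2 level minus the gene's mean over the 12 arrays; points are genes, open circles are arrays on slide 1, triangles arrays on slide 2, and black bars the median of the 31. The medians run from -0.38 to -0.22 in the 6-week wild type and from 0.16 to 0.33 in the knockout arrays, and replicate 2 of the 12-week wild type is at 0.06.

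At 6 weeks most of the endoplasmic reticulum folding and degradation genes were higher in the knockout liver in the fit without slide, and few of them with it. The fixed slide term comes from the 12-week wild type arrays, replicate 2 among them, as described below. By limma with Benjamini-Hochberg adjustment over all genes tested, at a threshold of 0.05, 19 of the 31 members (61.3%) were higher in the knockout, where 11.7% of all genes were, and 1 member was lower, where 9.35% of all genes were. With the slide as a fixed block 3 members were higher, where 1.41% of all genes were; a random slide block gave 5, where 2.98% were, and 0 were lower in either fit (1 in each at an unadjusted p under 0.05, by limma). The median difference of the 31 was 0.46 on the log2 scale, beside 0.02 over all genes, and 30 of the 31 differences were positive. In 20 members (64.5%) every knockout array lay above every wild type array, as in 25.3% of all genes, and in 1, Trib3, every knockout array lay below, as in 22.5%. The genes that were higher were chaperones, disulfide isomerases, ERAD components and the small secreted proteins Creld2 and Manf. None of the 4 transcription factors and none of the 4 downstream genes of the integrated stress response was higher by limma's adjusted p; at an unadjusted p under 0.05, 1 and 0 of them were. Leaving out replicate 2 of the 6-week wild type reduced the number to 10 members, where 6.43% of all genes were higher, and leaving out replicate 1 of the 6-week knockout reduced it to 12, where 7.99% were. Trib3 no longer passed without that wild type array or without replicate 2 of the 6-week knockout.

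At 12 weeks fewer members passed the test. Here 6 of the 31 (19.4%) were higher in the knockout, where 5.65% of all genes were, and 0 were lower, where 2.56% were. At an unadjusted p under 0.05, 16 were higher and 0 lower by limma. A fixed slide block left 2 higher, where 3.59% of all genes were, a random one 4, where 5.03% were, and slide 2 alone, with 2 wild type arrays, 1, where 2.06% were. Testing the dim probes too left 1, where 1.67% of all genes were higher, and fitting only the 2 groups compared left 0, where 1.18% were (11 higher and 1 lower at an unadjusted p under 0.05, by limma). The median difference was 0.35, beside 0.01 over all genes, and 29 of the 31 differences were positive. In 10 members every knockout array lay above every wild type array, as in 17.5% of all genes, and in 1, Ppp1r15a, every one lay below, as in 9.87%. Without replicate 2 of the wild type, 14 members were higher, where 4.29% of all genes were, with a median of 0.43. The count was 1 to 3 without any single array of the 12-week knockout, without replicate 1 or 3 of the 12-week wild type, or without replicate 2 or 3 of the 6-week knockout or replicate 2 of the 6-week wild type, and 4 without replicate 3 of the latter, since all 12 arrays share the estimate of spread; in these fits 1.99% to 6.25% of all genes were higher. The 6 were Canx, Pdia3, Xbp1, Edem1, Syvn1 and Sel1l, and 5 of them, all but Xbp1, were also higher at 6 weeks. The genotype comparisons of the 2 ages share no array, but they share that estimate of spread.

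**Figure D3:**
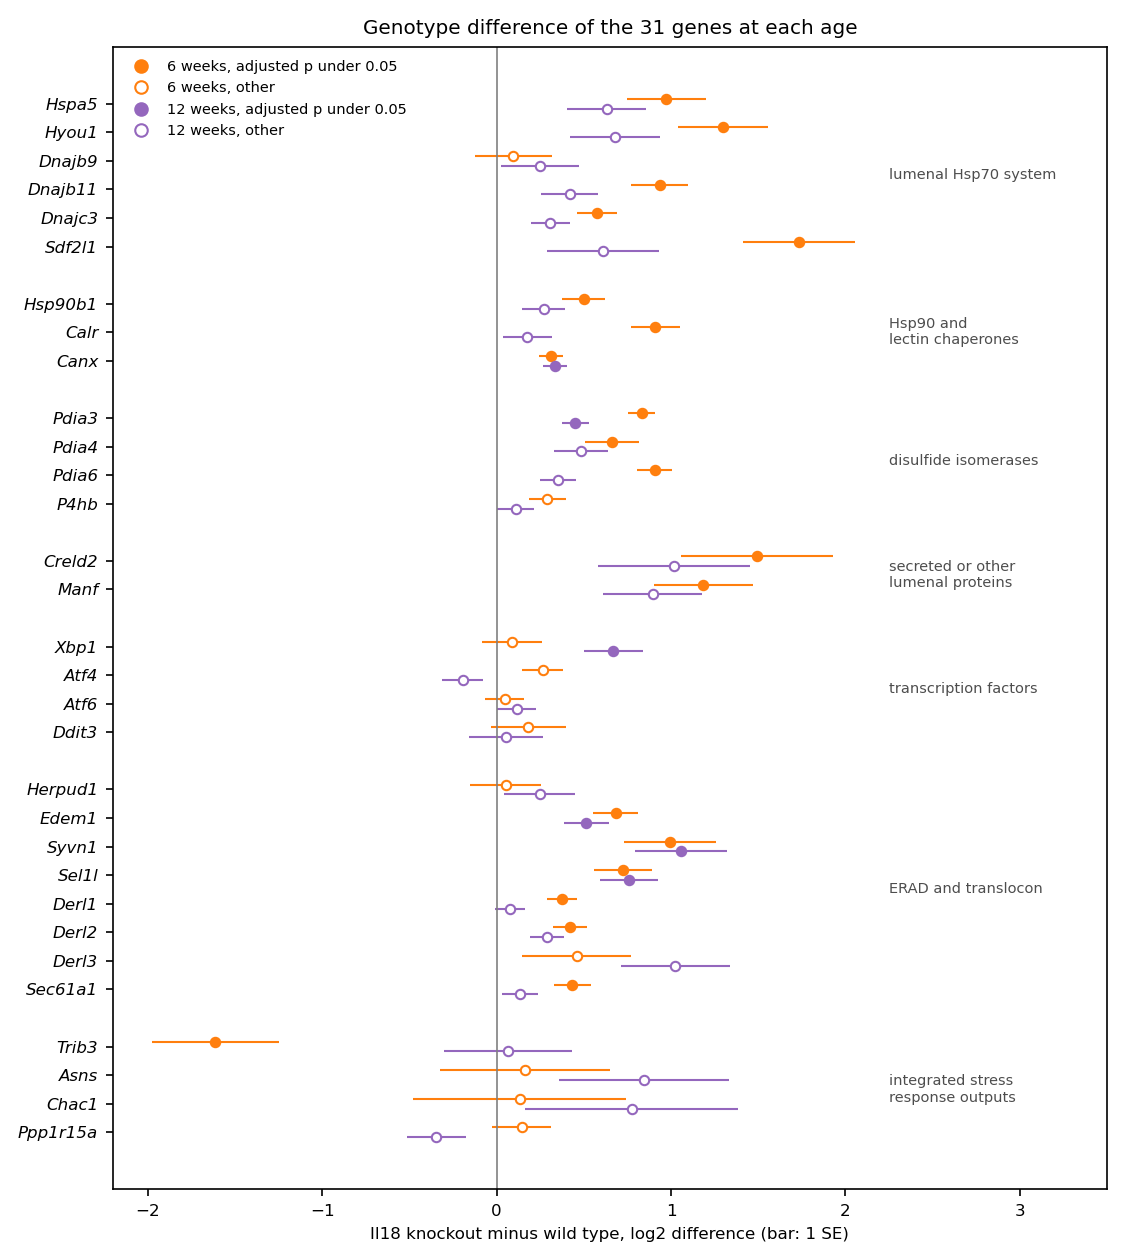
Log2 difference, knockout minus wild type, of each of the 31 members at 6 weeks and at 12 weeks, grouped by role; bars are 1 standard error and filled points have an adjusted p under 0.05. Filled points at 6 weeks cover 19 genes to the right of 0 and Trib3 to the left, and at 12 weeks 6 genes to the right.

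The lumenal Hsp70 system had 5 of 6 members higher at 6 weeks, with a median difference of 0.95 over the 6, and 0 of 6 at 12 weeks by limma's adjusted p (4 at an unadjusted p under 0.05), with a median of 0.52. Hspa5 encodes BiP, the Hsp70 of the endoplasmic reticulum, which holds unfolded chains and keeps the sensors inactive. The 6-week arrays gave Hspa5 levels of 7.11, 7.05 and 7.37 in the wild type and 8.19, 8.15 and 8.11 in the knockout, and the 12-week arrays 6.94, 8.07 and 7.36 and 8.16, 8.10 and 8.01 in the same order. Its probe lies at chr2:34631913-34631972 on mm9. The 3 knockout arrays of 6 weeks were all above the wild type ones and within a narrow band, whereas at 12 weeks the high wild type replicate 2 fell inside the knockout range. The difference was 0.97 ± 0.22 (SE, 3 arrays a group) at 6 weeks, a 1.96-fold difference with an adjusted p of 0.0148, and 0.63 ± 0.22 at 12 weeks with an adjusted p of 0.113. Without wild type replicate 2, the highest of its group, the 12-week difference was 0.94. It is smaller without replicate 1, the lowest of its group and the only 12-week array on slide 1.

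Hyou1 encodes a large Hsp110-type chaperone that acts as a nucleotide exchange factor for BiP. Hyou1 levels were -1.79, -2.11 and -1.72 in the 6-week wild type, -0.28, -0.69 and -0.76 in the 6-week knockout, -1.16, -0.53 and -1.69 in the 12-week wild type and -0.47, -0.26 and -0.63 in the 12-week knockout (chr9:44199354-44199413, mm9). At 6 weeks the groups did not overlap, and at 12 weeks replicate 2 of the wild type lay within the knockout range. The differences were 1.30 ± 0.26 (adjusted p = 0.00766) at 6 weeks and 0.68 ± 0.26 (adjusted p = 0.133) at 12 weeks. The Hyou1 probe is 6.19 Mb from the Il18 probe on chromosome 9, and that of Manf, also on this chromosome, is 56.4 Mb from it; a part of alleles linked to Il18 was not tested.

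Sdf2l1, a partner of the ER Hsp40 proteins, had the largest 6-week difference of the 31. Sdf2l1 levels were 2.49, 2.35 and 2.44 in the 6-week wild type, 4.62, 3.89 and 3.98 in the 6-week knockout, 3.55, 3.92 and 2.45 in the 12-week wild type and 4.05, 3.89 and 3.81 in the 12-week knockout (chr16:17130426-17130485, mm9). The 6-week wild type arrays lay in a band well below all knockout arrays, and replicate 3 of the 12-week wild type shared that low level while replicates 1 and 2 lay higher. The difference was 1.73 ± 0.32 at 6 weeks, 3.32-fold with an adjusted p of 0.00569, and 0.61 ± 0.32 at 12 weeks with an adjusted p of 0.272.

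Dnajb11 (ERdj3) and Dnajc3 (p58IPK) are Hsp40 co-chaperones of BiP. The 6-week arrays gave Dnajb11 levels of 4.30, 4.2 and 4.26 in the wild type and 5.39, 5.05 and 5.12 in the knockout, and the 12-week arrays 4.67, 5.07 and 4.33 and 5.18, 5.14 and 4.99 in the same order (chr16:22872067-22872126, mm9). All 6-week knockout arrays were higher than all 6-week wild type arrays, and the 12-week groups overlapped through wild type replicate 2. The 6-week difference was 0.93 ± 0.16 (adjusted p = 0.00432) and that at 12 weeks 0.42 ± 0.16 (adjusted p = 0.143). This result rests on 1 of 2 probes. The dimmer Dnajb11 probe, at chr16:22879612-22879671 on mm9, differed by -2.56 ± 0.32 at 6 weeks (adjusted p = 0.000817 over all probes tested), in the opposite direction, so the probes of this gene disagree.

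The 6-week arrays gave Dnajc3 levels of 3.84, 3.69 and 3.72 in the wild type and 4.44, 4.22 and 4.32 in the knockout, and the 12-week arrays 3.88, 4.16 and 3.73 and 4.31, 4.24 and 4.14 in the same order (chr14:119378131-119378190, mm9). Dnajc3 showed the same arrangement as Dnajb11, with 6-week groups apart and the 12-week wild type replicate 2 among the knockout values. It differed by 0.58 ± 0.11 at 6 weeks (adjusted p = 0.00723) and by 0.31 ± 0.11 at 12 weeks (adjusted p = 0.121). Dnajb9 (ERdj4), which is also an IRE1 repressor, was the member of this group that did not pass, with 0.10 ± 0.22 at 6 weeks (adjusted p = 0.782) and overlapping groups.

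All 3 of Hsp90b1, Calr and Canx were higher at 6 weeks, with a median difference of 0.50. Calr, calreticulin, and Canx, calnexin, are lectins that hold glycoproteins during folding. Calr levels were 5.49, 5.33 and 5.31 in the 6-week wild type, 6.47, 6.15 and 6.24 in the 6-week knockout, 6.11, 6.11 and 5.64 in the 12-week wild type and 6.15, 6.00 and 6.24 in the 12-week knockout (chr8:87366192-87366251, mm9). The 6-week wild type stood below every other array, and both 12-week groups lay close together. Calr differed between genotypes by 0.91 ± 0.14 at 6 weeks (adjusted p = 0.00235) and by 0.18 ± 0.14 at 12 weeks (adjusted p = 0.475). It rose between 6 and 12 weeks in the wild type by 0.58 ± 0.14 (adjusted p = 0.032). The genotype difference was smaller at 12 weeks by the test of that change, -0.73 ± 0.20 (adjusted p = 0.0424). This call was lost with a fixed slide block (-0.89, adjusted p = 0.0548) and was kept in 9 of 23 alternative analyses.

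Canx levels were 5.13, 5.08 and 5.13 in the 6-week wild type, 5.43, 5.44 and 5.40 in the 6-week knockout, 5.22, 5.30 and 5.20 in the 12-week wild type and 5.65, 5.49 and 5.59 in the 12-week knockout (chr11:50108047-50108106, mm9). For Canx the genotypes did not overlap at either age. It was higher in the knockout by 0.31 ± 0.07 at 6 weeks (adjusted p = 0.0118) and by 0.33 ± 0.07 at 12 weeks (adjusted p = 0.0178), so a small difference, 1.24-fold and 1.26-fold, passed at both ages. Hsp90b1 (GRP94), the Hsp90 of the lumen, was higher by 0.50 ± 0.12 at 6 weeks (adjusted p = 0.0194), and differed by 0.27 ± 0.12 at 12 weeks (adjusted p = 0.207).

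Of the 4 disulfide isomerases, 3 were higher at 6 weeks and 1 at 12 weeks. Pdia3 (ERp57), which works with calnexin and calreticulin, had the smallest p of all members. The 6-week arrays gave Pdia3 levels of 4.28, 4.2 and 4.26 in the wild type and 5.17, 5.03 and 5.04 in the knockout, and the 12-week arrays 4.64, 4.64 and 4.43 and 5.04, 5.0 and 5.04 in the same order (chr2:121263343-121263402, mm9). At both ages every knockout array lay above every wild type array, with the 12-week wild type between the 6-week wild type and the knockout. The differences were 0.83 ± 0.08 at 6 weeks (adjusted p = 0.000166) and 0.45 ± 0.08 at 12 weeks (adjusted p = 0.00932). Pdia3 also rose with age in the wild type, by 0.33 ± 0.08 (adjusted p = 0.0294), and its change of the genotype difference with age, -0.38 ± 0.11, missed the threshold (adjusted p = 0.0555).

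Pdia6 (P5) is an isomerase that also binds BiP and IRE1. Pdia6 levels were 6.99, 7.08 and 6.97 in the 6-week wild type, 8.03, 7.81 and 7.92 in the 6-week knockout, 7.36, 7.41 and 7.15 in the 12-week wild type and 7.81, 7.51 and 7.67 in the 12-week knockout (chr12:17291070-17291129, mm9). The groups were apart at both ages, by a wide gap at 6 weeks and a narrow one at 12 weeks. Pdia6 differed by 0.91 ± 0.10 at 6 weeks (adjusted p = 0.000421) and by 0.35 ± 0.10 at 12 weeks (adjusted p = 0.0603), and the difference between ages was -0.55 ± 0.14 (adjusted p = 0.036), a call kept in 13 of 23 alternative analyses and lost with a fixed slide block (adjusted p = 0.0728). Its other probe gave 1.16 ± 0.15 at 6 weeks (adjusted p = 0.000992 over all probes tested). Pdia4 (ERp72) was higher by 0.66 ± 0.16 at 6 weeks (adjusted p = 0.0161). P4hb, the abundant protein disulfide isomerase, differed by 0.29 ± 0.11 (adjusted p = 0.075) and its groups overlapped.

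Creld2 and Manf, small proteins that are retained in the lumen or secreted under stress, were both higher at 6 weeks. Manf levels were 4.07, 3.92 and 4.43 in the 6-week wild type, 5.51, 5.19 and 5.28 in the 6-week knockout, 3.85, 5.09 and 3.98 in the 12-week wild type and 5.28, 5.32 and 5.01 in the 12-week knockout (chr9:106791278-106791337, mm9). Every knockout array of Manf except replicate 3 of 12 weeks lay above all wild type arrays, since the 12-week wild type replicate 2 exceeded that 1 array. Manf differed by 1.19 ± 0.28 at 6 weeks (adjusted p = 0.0167) and by 0.89 ± 0.28 at 12 weeks (adjusted p = 0.0794). Without wild type replicate 2, the highest of its group, the 12-week difference was 1.29. It is smaller without replicate 1, the lowest of its group and the only 12-week array on slide 1. Creld2, measured by 10 spots on each array, was higher by 1.49 ± 0.44 at 6 weeks (adjusted p = 0.0363) and differed by 1.02 ± 0.44 at 12 weeks (adjusted p = 0.178). In its 12-week wild type replicate 2 stood at 6.74 beside 5.12 and 4.99 in replicates 1 and 3.

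ERAD and the translocon had 6 of 8 members higher at 6 weeks and 3 of 8 at 12 weeks. Edem1 is a lectin that takes trimmed glycoproteins out of folding. Edem1 levels were 3.51, 3.17 and 3.22 in the 6-week wild type, 3.98, 4.0 and 3.97 in the 6-week knockout, 3.20, 3.68 and 3.32 in the 12-week wild type and 3.93, 4.0 and 3.83 in the 12-week knockout (chr6:108808920-108808979, mm9). All knockout arrays exceeded all wild type arrays, at each age. The differences were 0.68 ± 0.13 (adjusted p = 0.00619) and 0.51 ± 0.13 (adjusted p = 0.0388).

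Sel1l and Syvn1 form the core of the HRD1 ubiquitin ligase complex, Syvn1 being the ligase. The 6-week arrays gave Sel1l levels of 1.97, 1.97 and 1.97 in the wild type and 2.94, 2.52 and 2.64 in the knockout, and the 12-week arrays 1.71, 2.37 and 1.86 and 2.76, 2.88 and 2.59 in the same order (chr12:93044963-93045022, mm9). The 3 wild type arrays of 6 weeks were nearly equal, and the knockout arrays were above the wild type ones at each age. Sel1l differed by 0.73 ± 0.17 at 6 weeks (adjusted p = 0.0143) and 0.76 ± 0.17 at 12 weeks (adjusted p = 0.0231). Syvn1 differed by 0.99 ± 0.26 (adjusted p = 0.0254) and 1.06 ± 0.26 (adjusted p = 0.0374), 1.99-fold and 2.08-fold, the latter the largest 12-week difference of the 31.

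The derlins form channels for retrotranslocation. Derl1 and Derl2 were higher at 6 weeks by 0.37 ± 0.09 (adjusted p = 0.0149) and 0.42 ± 0.10 (adjusted p = 0.0155). For Derl2 the 3 probes gave similar 6-week differences, 0.42, 0.43 and 0.47, whereas the second Derl1 probe gave -0.27 (adjusted p = 0.307 over all probes tested). Derl3, the derlin most tied to secretory cells, differed by 0.46 ± 0.31 at 6 weeks (adjusted p = 0.311) and by 1.03 ± 0.31 at 12 weeks (adjusted p = 0.0722), where its knockout arrays, 2.54, 2.69 and 2.63, lay above the wild type's 1.32, 2.33 and 1.14. Sec61a1, the channel of the translocon, was higher by 0.44 ± 0.10 at 6 weeks (adjusted p = 0.0176). Herpud1, which links the ligase to the proteasome, differed by 0.05 ± 0.20 (adjusted p = 0.875) with overlapping groups.

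Of the 4 transcription factor genes, 0 passed at 6 weeks and 1, Xbp1, at 12 weeks. Xbp1 encodes the factor that IRE1 activates by splicing, and the probe, at chr11:5425816-5425875 on mm9, gives its total level with no reading of splicing. The 6-week arrays gave Xbp1 levels of 7.04, 7.42 and 7.41 in the wild type and 7.54, 7.35 and 7.25 in the knockout, and the 12-week arrays 6.57, 7.22 and 7.03 and 7.53, 7.54 and 7.75 in the same order. The 6-week groups overlapped, and at 12 weeks the knockout arrays lay above all wild type arrays. Xbp1 differed by 0.09 ± 0.17 at 6 weeks (adjusted p = 0.736) and by 0.67 ± 0.17 at 12 weeks (adjusted p = 0.0403); the difference between ages, 0.58 ± 0.24, did not pass (adjusted p = 0.159). Atf6, Atf4 and Ddit3 (CHOP) differed by 0.05, 0.26 and 0.18 at 6 weeks and by 0.11, -0.19 and 0.05 at 12 weeks, with adjusted p between 0.131 and 0.903. Atf4 fell with age in the knockout by 0.45 ± 0.12 (adjusted p = 0.0458); its level was 6.67, 6.92 and 6.73 at 6 weeks and 6.13, 6.41 and 6.41 at 12 weeks.

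Among the downstream genes of the integrated stress response, Trib3 was the 1 member lower at 6 weeks. Trib3 encodes a pseudokinase induced through ATF4 and CHOP that restrains both ATF4 output and AKT. Trib3 levels were 3.71, 4.29 and 3.35 in the 6-week wild type, 1.95, 1.88 and 2.67 in the 6-week knockout, 3.41, 3.65 and 4.14 in the 12-week wild type and 4.29, 4.06 and 3.03 in the 12-week knockout (chr2:152163161-152163220, mm9). The 6-week knockout arrays were below all the others, which spread over a common range. The difference was -1.61 ± 0.37 at 6 weeks, 3.06-fold lower with an adjusted p of 0.014, and 0.06 ± 0.37 at 12 weeks with an adjusted p of 0.931. Within the knockout Trib3 rose with age by 1.63 ± 0.37 (adjusted p = 0.0274), a comparison inside slide 2. The change of the genotype difference with age, 1.68 ± 0.52, did not pass (adjusted p = 0.0682). Asns, asparagine synthetase, and Chac1, a glutathione-degrading enzyme, varied widely between arrays of a group, with standard errors of 0.49 and 0.61, and differed by 0.16 and 0.13 at 6 weeks. Ppp1r15a (GADD34), the phosphatase subunit that reverses eIF2 phosphorylation, differed by 0.14 at 6 weeks and by -0.35 at 12 weeks (adjusted p = 0.242).

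**Figure D4:**
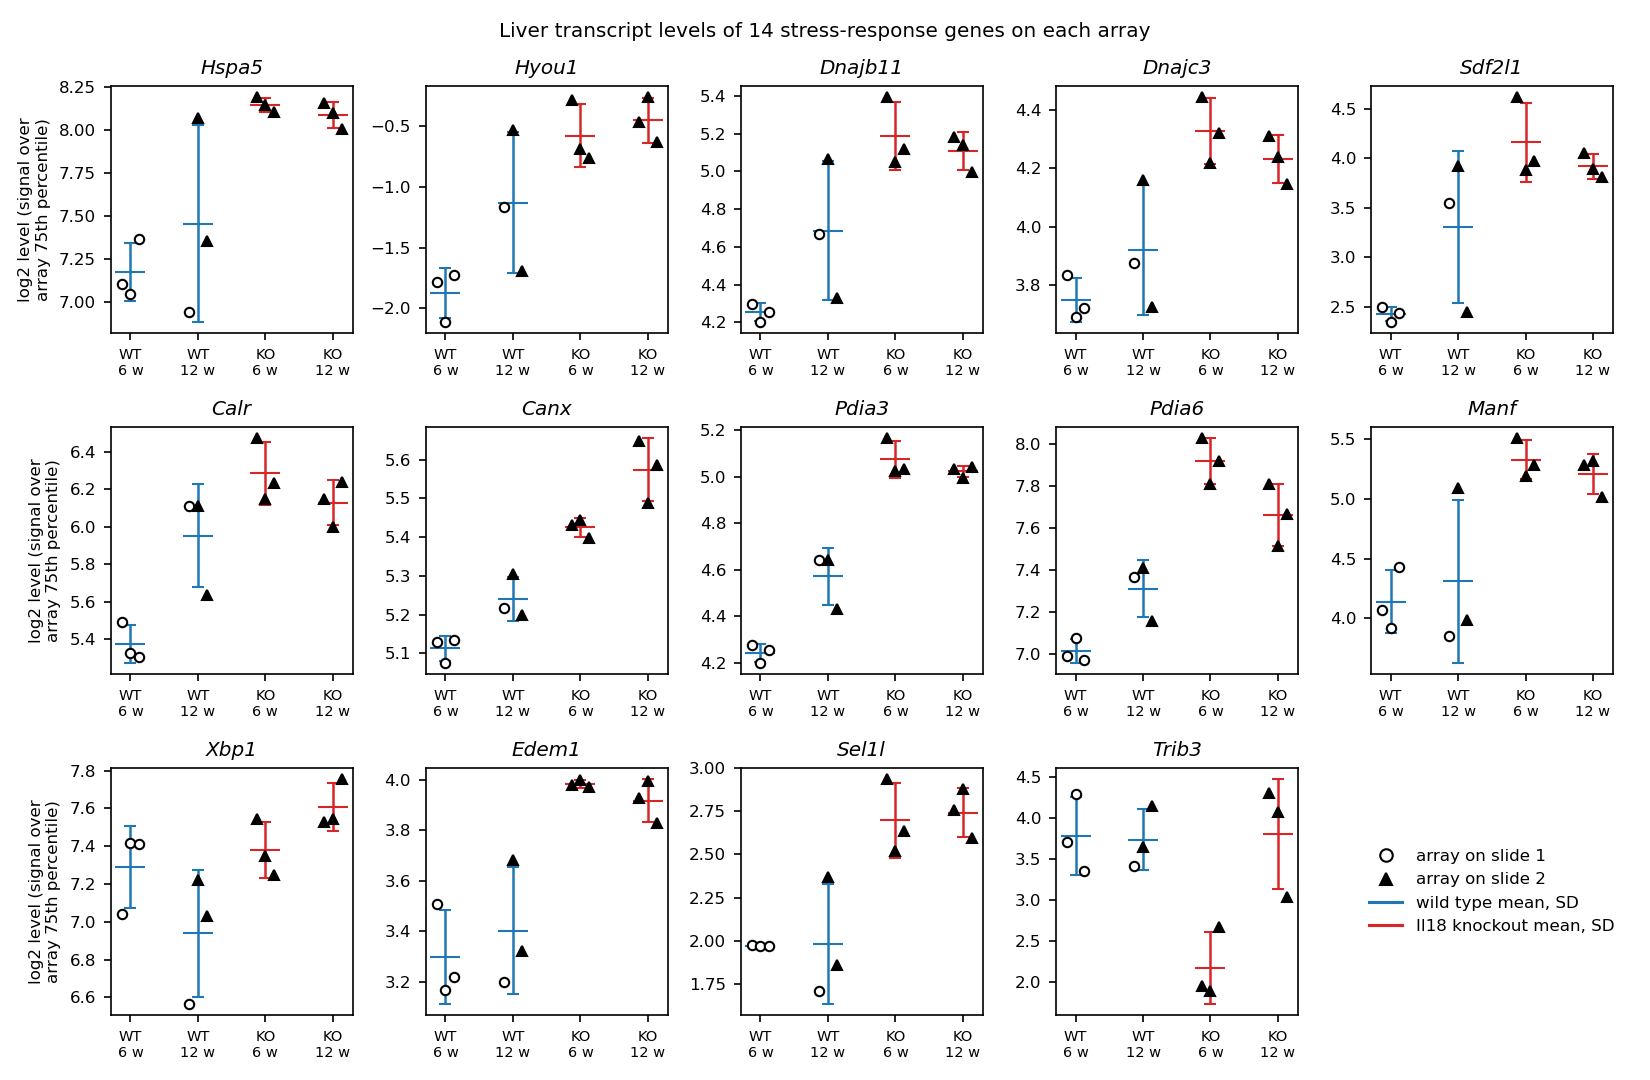
Log2 level on every array of 14 members, with wild type (blue) and knockout (red) means and SD; open circles are arrays on slide 1, triangles arrays on slide 2, and each panel has its own y axis. The 6-week groups are apart in all panels but Xbp1, and in many panels the highest 12-week wild type array, replicate 2, lies near the knockout arrays.

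With age, few members changed in the fit without array weights. With array weights 18 members rose and 2 fell in the wild type at an unadjusted p under 0.05, by limma. Counts by the adjusted p in that fit are given in the closing section. In the wild type 2 members rose, Calr and Pdia3, where 4.61% of all genes rose, and 0 fell, where 4.43% fell (7 and 1 at an unadjusted p under 0.05, by limma). In the wild type 23 of the 31 differences were positive, with a median of 0.13. Age is largely joined with slide here, since all 6-week wild type arrays were on slide 1 and 12-week replicates 2 and 3 on slide 2. With the slide as a fixed block 15 of the 31 differences were positive, with a median of -0.07. No wild type age difference passed without any single 6-week wild type array or without replicate 2 of 12 weeks, where 2.31% to 2.83% of all genes rose. Without replicate 1 of 12 weeks 1 member rose, where 6.98% of all genes did, and without replicate 3 there were 6, where 4.21% did. In the knockout 1 rose, Trib3, where 3.98% of all genes rose, and 1 fell, Atf4, where 2.93% fell, with a median of -0.07. Neither passed without replicate 1 or 2 of the 6-week knockout or of the 12-week knockout, and Atf4 did not pass without replicate 3 of either, or without any 6-week wild type array or replicate 2 of the 12-week wild type. The genotype difference changed with age in 2 members, Calr and Pdia6, both smaller at 12 weeks, where 4.76% of all genes had a lower difference at 12 weeks; 0 were higher, where 5.58% of all genes were (2 at an unadjusted p under 0.05, by limma). Neither Calr nor Pdia6 passed here without any single 6-week wild type array, replicate 2 of the 12-week wild type, replicate 1 or 3 of the 6-week knockout, or replicate 2 or 3 of the 12-week knockout, and 5 members were lower without replicate 3 of the 12-week wild type, where 5.61% of all genes were. The median change was -0.18, with 20 of the 31 changes below 0 and 11 above it. With the slide as a fixed block it was 0.03, with 17 of the 31 changes above 0. The comparisons of an age with a genotype share arrays, so their values are given side by side and not as separate support. Arrays also differed in how tightly they sat: the median SD of a member was 0.16 in the 6-week wild type, 0.28 in the 12-week wild type, 0.16 in the 6-week knockout and 0.13 in the 12-week knockout. In 24 of the 31 members the 12-week wild type had a larger SD than the 12-week knockout. This was not counted over all genes, so it is no result about the members.

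The slide was entered into the fit as a block. At 6 weeks the fixed block takes its slide term from the 12-week wild type alone, as replicates 2 and 3 against replicate 1. What sets replicate 2 apart therefore enters these values, and the fit cannot tell slide and that replicate apart. As a fixed block, estimated through the 1 older wild type array that shares slide 1, the members that stayed higher at 6 weeks were Calr (1.15), Pdia3 (0.94) and Pdia6 (0.99), with a median of 0.28 and 24 of 31 differences positive. Hspa5 then differed by 0.20 ± 0.29, Syvn1 by 0.20 ± 0.39, Manf by 0.50 ± 0.46, Sdf2l1 by 2.09 ± 0.60 and Trib3 by -2.09 ± 0.67, none of which passed. At 12 weeks Canx and Pdia3 stayed, with a median of 0.37. As a random block it kept Calr, Dnajb11, Pdia3, Pdia6 and Sdf2l1 at 6 weeks, and Canx, Pdia3, Sel1l and Syvn1 at 12 weeks. Within slide 2 alone Pdia3 passed at 12 weeks (0.49 ± 0.09, adjusted p = 0.0413), and 27 of the 31 differences were positive with a median of 0.37. Calr, Pdia3 and Pdia6 at 6 weeks passed in all 24 alternative analyses run for that comparison.

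**Figure D5:**
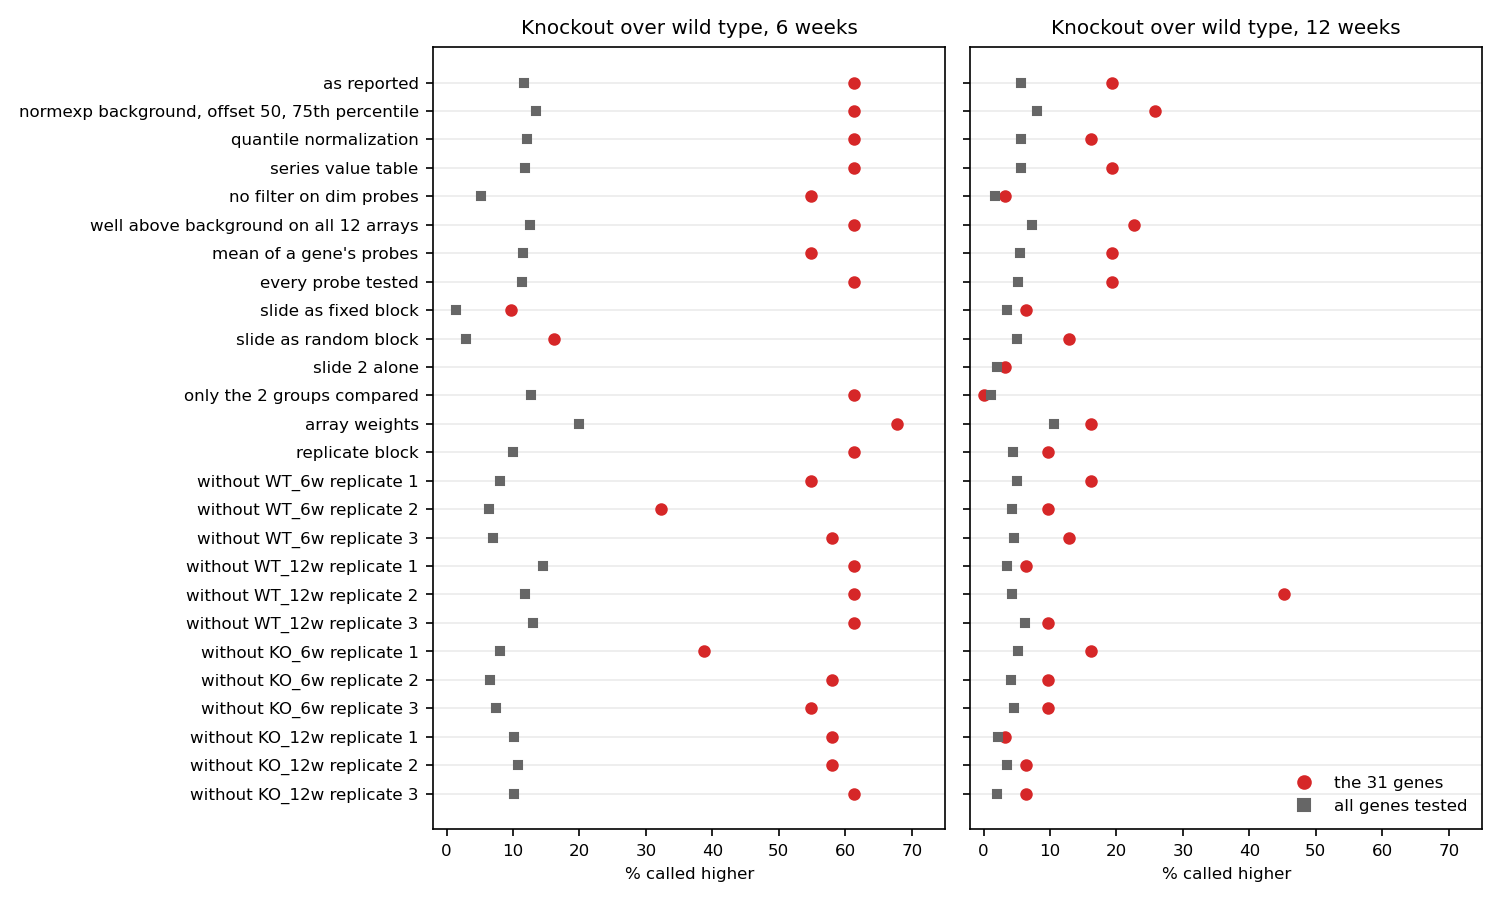
Share of the 31 members (circles) and of all genes tested (squares) that were higher in the knockout at 6 weeks (left) and at 12 weeks (right), in % on the x axis, as reported and under each alternative analysis on the y axis. The circles fall to 3 of 31 members at 6 weeks with the slide as a fixed block and reach 14 of 31 at 12 weeks without wild type replicate 2.

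Wider lists of the same pathways were examined in the fit without slide only, leaving out the 31. Of all genes in that fit, 11.7% were higher and 9.35% lower at 6 weeks, and 5.65% and 2.56% at 12 weeks. With the slide as a fixed block 1.41% of all genes were higher at 6 weeks, and the lists were not counted in that fit. The list of the translocon, signal peptidase and oligosaccharyl transferase held 34 genes, of which 20 were higher at 6 weeks and 0 lower (1 lower at an unadjusted p under 0.05, by limma). Its median was 0.43. Ssr4 (0.60), a translocon-associated protein, Rpn1 (0.84), an oligosaccharyl transferase subunit, Sec61g (0.73) and Spcs2 (0.68), of signal peptidase, had the smallest p. Of 31 other ER chaperones and disulfide enzymes, 12 were higher and 1 was lower, and the median was 0.19. Uggt1 (0.82), the glycoprotein folding sensor, Ero1b (1.23), an oxidase, and Tmx4 (0.79) were higher, and Rcn2 (-0.70), a calcium-binding protein, was lower. Transport from ER to Golgi had 10 of 30 higher and 1 lower, among them Bet1 (0.78), Tmed9 (0.98), Cope (0.48) and Copa (0.39). Of 24 other ERAD genes 5 were higher, among them Ube2g2 (0.81), Faf2 (0.50), Ufd1 (0.38) and Selenok (0.44).

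Of the 13 sensors and ER-membrane factors, 2 were higher at 6 weeks, Atf6b (0.87) and Wfs1 (0.78). The sensor genes themselves did not pass: Ern1, for IRE1, differed by 0.21 (adjusted p = 0.165) and Eif2ak3, for PERK, by 0.15 (adjusted p = 0.575). Of 45 other genes of the integrated stress response, 15 were higher and 3 lower. The threonyl and cysteinyl tRNA synthetases Tars (1.14) and Cars (0.71) and the mitochondrial folate enzyme Mthfd2 (3.07) were higher, and the lipoprotein receptor Vldlr (-3.13) was lower. At 12 weeks these lists had 0 of 13 sensors, 2 of 31 chaperones, 0 of 24 ERAD genes, 1 of 34 translocon genes, 2 of 30 transport genes and 4 of 45 integrated stress response genes higher, beside the 5.65% of all genes. Of the sensors and ERAD genes 3 and 4 were higher at an unadjusted p under 0.05 by limma. Rcn2 (-0.53) and Sec61a2 (-0.48) were lower. In the last list 4 were also lower at 12 weeks, Cars (-0.59), Nupr1 (-0.91), Psat1 (-1.32) and Cebpg (-0.38), and Cth (0.47) had the smallest p among the higher ones.

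For the promoter letters, again in the fit without slide, the 20 ERSE genes on the array that were tested had 11 higher and 3 lower at 6 weeks. Among these 20, the 11 that are not members had 3 higher and 3 lower, with a median of 0.19. The 3 higher ones were Ero1b (1.23), Alg12 (0.63), an enzyme of glycan assembly, and Acacb (1.63), acetyl-CoA carboxylase of mitochondria, and the 3 lower ones 4930402F11Rik (-1.14), Spats2l (-0.36) and Zfp57 (-0.66). Of the 355 tested genes with a CARE, 50 (14.1%) were higher and 31 lower at 6 weeks, near the shares of all genes, 11.7% and 9.35%.

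Markers of cell types were counted in the same fit without slide. Of all genes, 11.7% were higher and 9.35% lower at 6 weeks, and 5.65% and 2.56% at 12 weeks. The hepatocyte and the B and plasma cell genes each had 12.5% higher at 6 weeks, near the share of all genes. In lists this short, 1 gene called is not read as a change of the cell type. Whether markers and members vary together was not examined. Of 5 erythroid genes, 4 were higher and 1 lower in the knockout at 6 weeks and 3 were higher at 12 weeks, and their summed linear level, relative to the 75th percentile, ran from 102 to 117 in the 6-week wild type, 106 to 153 in the 12-week wild type, 168 to 277 in the 6-week knockout and 182 to 252 in the 12-week knockout. Of 7 NK and T cell genes, 1 was lower at 6 weeks and 4 at 12 weeks. At 6 weeks 2 of 5 neutrophil and monocyte genes were higher, S100a9 (0.90) and S100a8 (0.74), and 1, Elane (-0.63), was lower. Of 6 cholangiocyte genes 2 were higher at 6 weeks, among them Sox9 (1.81), and 1, Cftr (-0.99), was lower. At 12 weeks 1 of them, Spp1 (-0.52), was lower. Of 8 stellate cell genes 1 was lower at 6 weeks, Lrat (-0.50), and of 7 endothelial genes 1, Kdr (-0.54), with 1, Oit3 (0.52), higher at 12 weeks. Of 11 Kupffer cell genes 1 was lower at 12 weeks by the adjusted p, Timd4 (-0.81). All 11 differences were below 0 at that age, from -1.43 to -0.03 with a median of -0.28. At an unadjusted p under 0.05 by limma, 5 of them were lower and 0 higher. Of 8 hepatocyte genes 1 was higher at each age, Tat (0.92) and Cps1 (0.53). Plasma cells and pancreatic acinar cells express these chaperones at high levels. Of 8 B and plasma cell genes 1 was higher at 6 weeks, Sdc1 (0.51), and 1 was lower at 12 weeks, Jchain (-1.49). Their sums ran from 10.2 to 11.6 in the 6-week wild type, below the 13 to 15.9 of the 6-week knockout. At 12 weeks they ran from 12.7 to 13.8 in the wild type and 11.8 to 13.4 in the knockout. Such sums of linear levels are weighted to the brightest genes. The median log2 difference of the 8 genes was below 0 at both ages, -0.23 at 6 weeks and -0.31 at 12 weeks. Tnfrsf17 was well above background on 0 arrays. Of 19 pancreatic acinar genes on the array 8 were tested, and 0 passed at 6 weeks by limma (1 at an unadjusted p under 0.05). Their sums were 87.4 to 94.3 in the wild type and 83.8 to 93.0 in the knockout at 6 weeks. At 12 weeks they were 61.2 to 86.1 against 94.1 to 106, and 1 gene, Amy1 (0.45), was higher. The median difference of the 8 tested genes at 12 weeks was -0.22, opposite in direction to the sums. Cpb1, Pnlip, Cela3b and Try4 were well above background on 0 arrays. Of 11 heat shock and immediate early genes, 3 were higher at 6 weeks, Hspb1 (0.94), Hsp90aa1 (0.91) and Hsph1 (0.71), and 0 at 12 weeks (3 at an unadjusted p under 0.05, by limma). The part of these cells and of handling in the members' differences was not tested.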

How the data were processed

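Per the file headers, the authors scanned 12 1-colour arrays with Agilent Feature Extraction 10.7.3.1 and deposited, per spot, a background-subtracted and detrended processed signal, an intensity not scaled between arrays, with the raw mean and background intensity. The deposited value table of the series holds the same processed intensity, rounded; its column medians ran from 21.6 to 29.5 and it is neither centred nor a ratio. Probe coordinates (mm9) come from the scanner output.

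Control and outlier spots were left out, spots of a probe were averaged, and the log2 processed signal was set relative to the 75th percentile of its array. Testing required a signal well above background in every array of some group, which 29807 of 55681 probes met. The brightest probe stood for a gene, leaving 22132 genes; 6 members have more than 1 probe. All 12 arrays entered 1 model of group means (lmFit and eBayes of limma 3.58.1, R 4.3.3), and p-values were adjusted by Benjamini-Hochberg over all genes, with a threshold of 0.05. The fit was tested on simulated data, drawn independently for each gene with no slide effect and no deviating array. That test cannot show how slide or a single array affects the results. The number of arrays limits the precision. Slide, background correction (normexp, offset 50), scaling, filter, probe choice, replicate block, array weights and each array left out were tried as alternatives.

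The members and lists were chosen with earlier results of these data known. Levels on each array are given for at most 14 members, those with the smallest p among the 22 that passed a comparison with groups apart, with at least 1 of each role. From the wider lists up to 4 genes with the smallest p are named. Genes outside these rules, the ERSE genes and the cell markers among them, were chosen after their values were seen. The labels do not say that replicate numbers pair the arrays, and correlations of same-numbered arrays gave no clear pairing. Promoter sequences are from RefSeq on GRCm38.p6; Hyou1, Manf, Atf6, Derl1 and Sec61a1 had no window.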

Additional observations from a re-analysis of the deposited data

Results flagged for a closer look

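The genotype difference, knockout minus wild type, changed between 6 and 12 weeks in 2 members by the test of that change itself (limma, Benjamini-Hochberg adjustment over all genes). Both were lower at 12 weeks, as were 4.76% of all genes, so the count of 2 in 31 is near the background and is no result about the 31 genes as a group. Calr had a change of -0.73 on the log2 scale (adjusted p = 0.0424), from 0.91 at 6 weeks to 0.18 at 12 weeks. Pdia6 had a change of -0.55 (adjusted p = 0.036), from 0.91 to 0.35. In both genes the 12-week wild type lay above the 6-week wild type, by 0.58 in Calr and 0.30 in Pdia6. A random slide block gave changes of -0.80 and -0.58, which passed (adjusted p = 0.0423 and 0.0449). A fixed slide block gave -0.89 and -0.61, which did not pass (adjusted p = 0.0548 and 0.0728). Of 23 alternative analyses, Calr passed in 9 and Pdia6 in 13. The part of the slide in these changes was not tested beyond these fits.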

How the results depend on the processing

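With the slide as a fixed block, 585 genes were called at 6 weeks and 728 for age in the wild type. Members called were then 3 at 6 weeks, 2 at 12 weeks, 0 for age in the wild type and 1 for the difference between ages, with member medians of 0.28 at 6 weeks, -0.067 for wild type age and 0.026 for the difference. As a random block it gave 1227 and 1079 genes, with 5 members at 6 weeks and 1 for wild type age. Slide 2 alone gave 731 genes and 1 member at 12 weeks, and 1 member for age in the knockout. With no filter on dim probes 825 genes were called at 12 weeks, 1230 and 730 for age in wild type and knockout and 1341 for the difference, and members called were 1, 0, 0 and 0. Fitting only the 2 groups compared gave 378 genes and 0 members at 12 weeks, 395 genes and 0 members for wild type age, and 0 members for knockout age. Array weights gave 8121 and 3732 of the 22132 genes at 6 and 12 weeks. They gave 5959 and 3056 for age in wild type and knockout and 5505 for the difference. Members called were 14 for wild type age (median 0.28) and 12 for the difference (median -0.34). At an unadjusted p under 0.05 by limma, 18 members rose and 2 fell with age in the wild type. For the difference 2 were higher and 15 lower. Quantile normalization left 1 member for the difference. With the mean of a gene's probes, Dnajb11 reversed, to -0.81 at 6 weeks, 1.13 for knockout age and 0.84 for the difference, its other probe being opposite. The causes of the other shifts were not tested.

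Leaving out 1 array in turn, members called ran from 10 to 20 at 6 weeks, 1 to 14 at 12 weeks, 0 to 6 and 0 to 2 for age in wild type and knockout, and 0 to 5 for the difference. All genes called ran from 2541 to 6205, 680 to 2073, 982 to 3809, 628 to 1835 and 1562 to 3318, and member medians from 0.40 to 0.55, 0.30 to 0.44, 0.03 to 0.19, -0.12 to -0.01 and -0.28 to -0.07, in that order. Same-numbered arrays correlated at -0.09 to 0.18, over 0.1 in 2 of 18 pairs, replicates 1 and 3 of the wild type groups. These correlations gave no clear pairing by number, but low values cannot show that none exists. With a replicate block 20 members were called in either direction at 6 weeks, 3 at 12 weeks, 2 and 1 for age and 2 for the difference. At an unadjusted p under 0.05 by limma, 21 were higher and 1 lower at 6 weeks. At 12 weeks 15 were higher and 1 lower. The share of all genes called with this block is not given, so the counts are no result about the members. Signal over background did not limit the members, all measured on 12 arrays.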
